A study of Mus musculus with 2 samples.

Results

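Nupr1 and 9 genes of the integrated stress response (Atf4, Atf5, Ddit3, Ddit4, Trib3, Chac1, Asns, Sesn2 and Psat1) were followed through cultures of mouse aortic smooth muscle cells. These 10 genes were taken by symbol from the 31053 genes listed in each library. Nupr1 was chosen by its measured level, which was high in cells with more Myh11, the smooth muscle myosin heavy chain, so its levels across these cells are given as a description without a test. The other 9 were named for their place in the same stress pathway, and the question was whether they accompany Nupr1.

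The cells were primary vascular smooth muscle cells (VSMCs) of wild type mice, taken from the thoracic aorta and grown for 5 days in serum-containing full medium with no other treatment. There was 1 condition, WT at day 5, with 2 libraries labelled as biological replicates. Non-atherosclerotic mice of the study were on a C57BL6/N background, and several aortae were pooled for a cell preparation, so a library is a mixture of animals. The age of the mice is not given in the sources used here. Messenger RNA of single cells was counted from its 3' end, with unique molecular identifiers (UMIs) so that each captured molecule counts once.

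The integrated stress response begins when kinases that sense misfolded protein, amino acid shortage, double-stranded RNA or haem deficiency phosphorylate the translation factor eIF2. Translation then falls in general, while the mRNA of the transcription factor ATF4 is translated more. ATF4 is therefore controlled largely at the protein level, which mRNA counts do not show, and its activity is usually read from its target genes. NUPR1 is a small, stress-inducible chromatin-associated protein whose gene is itself known to respond to ATF4.

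By role, the regulators come first. Atf4 (chr15:80255184-80257541, plus strand) encodes the transcription factor, and Atf5 (chr7:44812256-44816658, minus strand) a related factor controlled in the same way. Ddit3 (chr10:127290774-127296288, plus strand) encodes CHOP, which acts with ATF4 in prolonged stress, and Trib3 (chr2:152337422-152344032, minus strand) a pseudokinase that restrains ATF4. The metabolic targets are Asns (chr6:7675169-7693254, minus strand), asparagine synthetase, Psat1 (chr19:15904678-15947337, minus strand) of serine synthesis and Chac1 (chr2:119351229-119354381, plus strand), which degrades glutathione. Ddit4 (chr10:59949669-59951834, minus strand) and Sesn2 (chr4:132492032-132510501, minus strand) encode inhibitors of the growth kinase mTORC1. Nupr1 itself lies at chr7:126623249-126630861 on the minus strand. Coordinates are of GRCm38, from GENCODE M21. In that annotation Ddit3 overlaps another gene model of the same name, and Sesn2 overlaps Gm12981 on the same strand, so reads of these could be split or lost. Atf5 overlaps Nup62 and Il4i1, Ddit3 overlaps Mars and Gm4189, and Psat1 overlaps Gm3329 on the opposite strand, and the strand setting of the counting is not given in the sources used here.

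ATF4 binds a composite C/EBP-ATF response element, searched here as TGATGNAA on both strands. In windows from 250 bases before to 50 bases after the transcription starts of RefSeq (GRCm38.p6), all 10 members had a promoter and 4 held the element: Nupr1, Asns, Chac1 and Trib3. Over all 32851 promoters of the table, which belong to 27025 genes, the share was 3.97%. That share is per promoter, while the members were counted per gene. Neither the CArG box, bound by serum response factor in smooth muscle genes, nor the ER stress response element, both searched on both strands, was found in the 10 promoters, against shares of 1.63% and 0.119% of all promoters. A match is a run of letters and not a measured binding site. The 4 matches are shown with their surroundings, in the direction of the gene, because they are the members whose promoter window holds the element. Capitals mark the element, which is read on the reverse strand in all but Asns. Its first base lies 110 bases before the start in Nupr1 (chr7:126625562-126625591, minus strand), 23 before in Asns (chr6:7693214-7693243, minus strand), 193 before in Chac1 (chr2:119351038-119351067, plus strand) and at base 15 after the start in Trib3 (chr2:152344028-152344057, minus strand). These distances are from the RefSeq starts, which are not the ends of the GENCODE genes given above: the Nupr1 and Asns matches lie inside those genes, and the Trib3 match lies before its gene.
Nupr1: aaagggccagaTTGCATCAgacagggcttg
Asns: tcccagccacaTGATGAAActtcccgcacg
Chac1: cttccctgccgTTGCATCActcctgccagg
Trib3: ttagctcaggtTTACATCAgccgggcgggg

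A barcode was taken as a cell if it held 300 genes and 3000 UMIs or more, with a mitochondrial share of UMIs below 20%, which left 4866 in replicate 1 and 6824 in replicate 2, with 127949633 and 132561822 UMIs in all barcodes. Of these, 9 barcodes occurred in both libraries, against 4.89 expected by chance. Replicate 1 was deeper, with a median of 22234.5 UMIs a cell against 16310, and its median mitochondrial share was lower, at 3.69% against 5.08%. Cells were placed in exclusive classes. Endothelial cells had at least 2 UMIs in 2 of Pecam1, Cdh5, Cldn5 and Gja4. The remaining cells were contractile at 5 or more Myh11 UMIs, intermediate at 2 to 4 and low in Myh11 at 0 or 1, and each of these was cycling if 20 cell cycle genes reached 1000 CPM (UMIs of a gene scaled to 1000000 UMIs) in sum. Replicates 1 and 2 held 303 and 515 contractile, 170 and 364 contractile cycling, 2559 and 3747 low-Myh11, 1395 and 1615 low-Myh11 cycling and 102 and 141 endothelial cells. Of the contractile markers, which include Myh11 of the rule, 10 of 10 had higher levels in contractile cells and 6 passed the test, among them Myocd, the coactivator of the smooth muscle programme, and Synpo2. Of the endothelial markers, 8 of 8 passed in endothelial cells, 4 of them part of the rule. Summed macrophage markers stayed between 3.30 and 33.5 CPM in every class and library, and the 3 erythroid markers were at 0.

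Nupr1 stood at 823 CPM in replicate 1 and 801 CPM in replicate 2 in contractile cells, a mean of 812 ± 15.8 (SD, n = 2 libraries). Cycling contractile cells had 872 and 706 CPM. Both libraries were several times lower in cells low in Myh11, at 127 and 93.0 CPM without cycling (110 ± 23.7) and 113 and 101 CPM with it. Contractile cells thus held 6.48-fold and 8.61-fold the low-Myh11 level within replicates 1 and 2. Intermediate cells lay between, at 248 and 432 CPM, and their cycling counterparts at 210 and 403 CPM. Endothelial cells were at 201 and 183 CPM, above low-Myh11 cells and below contractile cells in both libraries. In the order of means, the contractile classes overlapped each other, the intermediate classes overlapped each other and the low-Myh11 classes overlapped each other, whereas the ranges of these 3 pairs and of the endothelial cells did not meet.

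**Figure D1:**
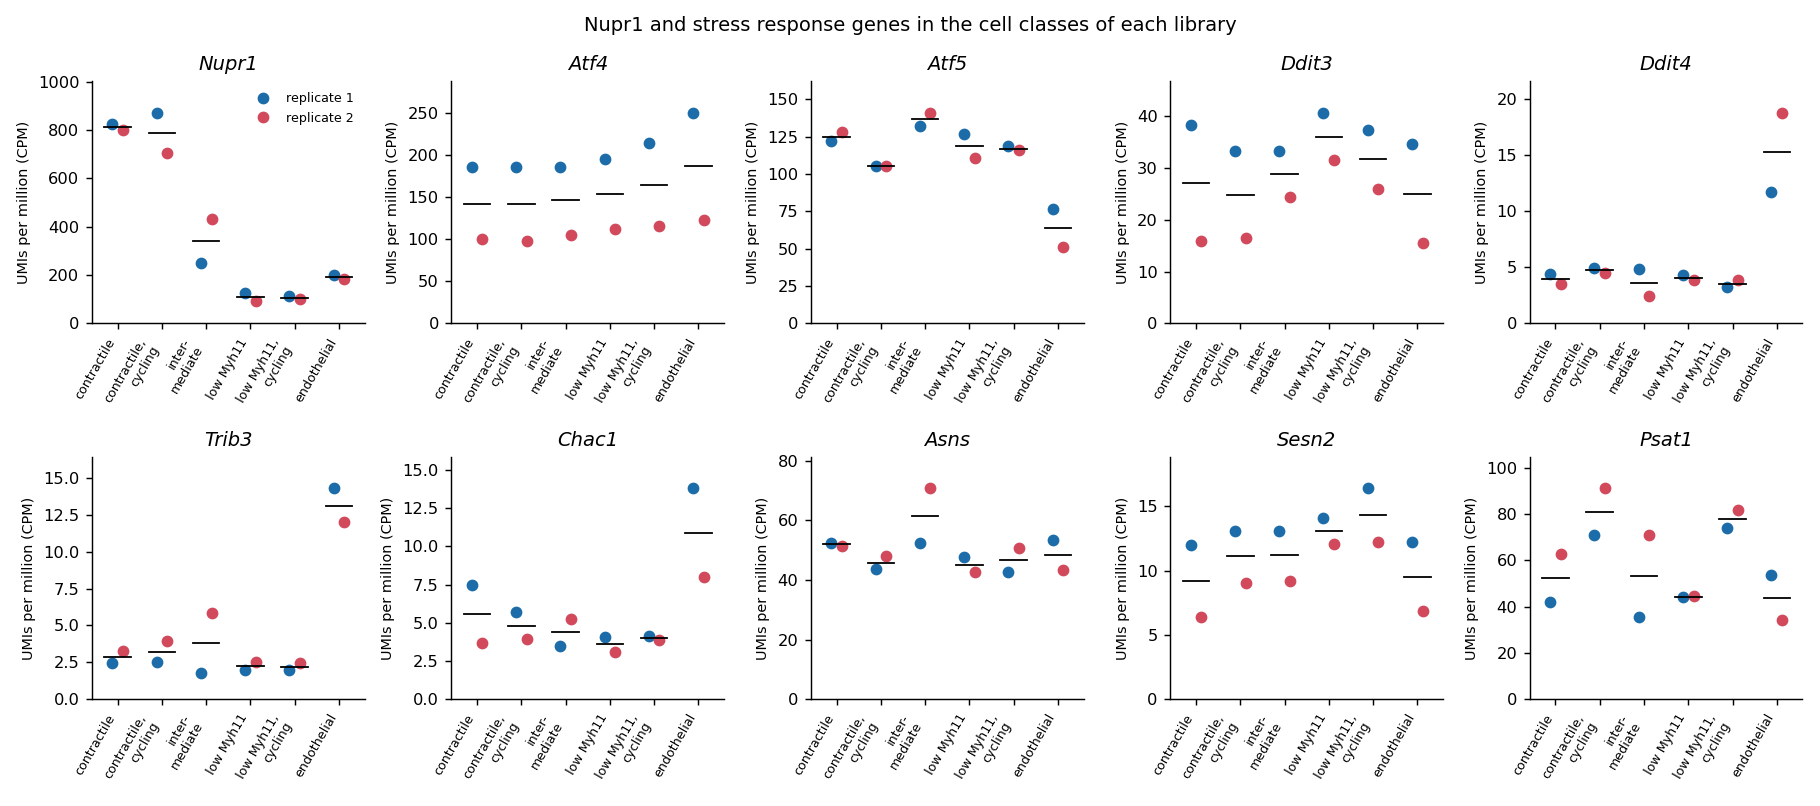
Level of each of the 10 genes in CPM (linear axis from 0) in 6 of the classes, with 1 point per library and a line at the mean of both. Nupr1 had a mean of 812 CPM in contractile cells and 110 CPM in low-Myh11 cells, Trib3, Ddit4 and Chac1 were highest in endothelial cells, and Atf4 was higher in replicate 1 in every class.

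Nupr1 also differed between cells within the classes, by the number of Myh11 UMIs. In non-cycling smooth muscle cells without a Myh11 UMI, Nupr1 was at 127 and 85.8 CPM in replicates 1 and 2. At 5 to 9 Myh11 UMIs it was at 404 and 654 CPM, and at 20 or more at 1310 and 895 CPM. Replicate 1 rose over all bins from 1 UMI on, while replicate 2 reached 917 CPM at 10 to 19 UMIs and did not go beyond. Over the same bins Atf4 ran from 176 to 197 CPM in replicate 1 and from 95.7 to 117 CPM in replicate 2, without an order. Deeper cells are more likely to reach a given UMI count, and median UMIs a cell ran from 19859 to 30304.5 over the bins of replicate 1 and from 14686 to 22319.5 in replicate 2. With cycling cells included, just inside the contractile cut, at exactly 5 Myh11 UMIs, Nupr1 was at 622 and 563 CPM in 36 and 96 cells, and just outside it, at 4 UMIs, at 233 and 557 CPM in 79 and 114 cells.

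**Figure D2:**
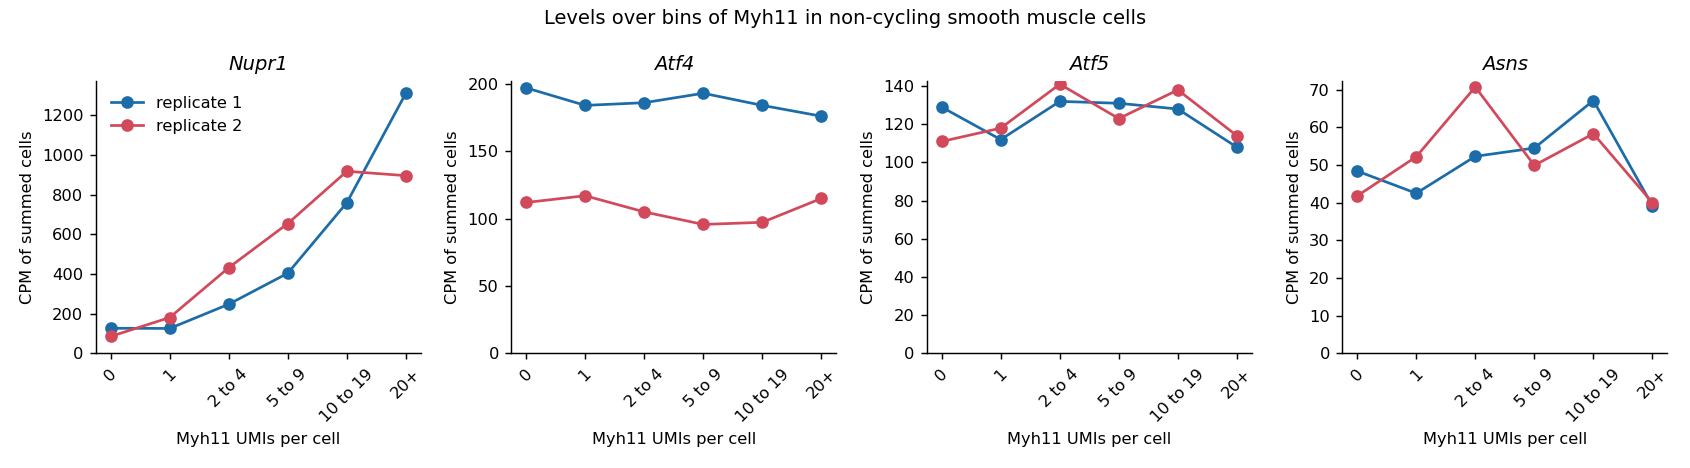
CPM of Nupr1, Atf4, Atf5 and Asns (linear axes from 0) in non-cycling smooth muscle cells summed within bins of Myh11 UMIs per cell, 1 line per library. Nupr1 went from 127 and 85.8 CPM in the lowest bin to 1310 and 895 CPM in the highest, while Atf4 stayed between 95.7 and 197 CPM over both libraries.

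Nupr1 was uneven among contractile cells. In replicate 1 the 10th, 50th and 90th percentile of single contractile cells were 29.7, 337 and 2610 CPM, and in replicate 2 they were 85.2, 589 and 1910 CPM. In low-Myh11 cells the median was 71.3 and 30.0 CPM and the 90th percentile 312 and 239 CPM. A minority of low-Myh11 cells reached the contractile median of their library, 210 of 2559 cells (8.21%) and 107 of 3747 cells (2.86%).

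A Nupr1 UMI was found in 273 of 303 contractile cells of replicate 1 (90.1%, exact 95% interval 86.2 to 93.2) and 490 of 515 in replicate 2 (95.1%, 92.9 to 96.8). In low-Myh11 cells the shares were 70.7% (68.9 to 72.5) and 51.0% (49.4 to 52.6), and in endothelial cells 70.6% (60.7 to 79.2) and 59.6% (51.0 to 67.7). These intervals cover counting error only. The classes differ in depth, with median UMIs of 24152 and 18989 in contractile, 20090 and 14742 in low-Myh11 and 14629 and 10250 in endothelial cells. After thinning each cell to 3000 UMIs the expected shares were 59.8% and 72.9% in contractile cells, 26.8% and 19% in low-Myh11 cells and 34.4% and 31.4% in endothelial cells, so the order of contractile over low-Myh11 cells held and endothelial cells came above low-Myh11 cells in both libraries. Pecam1, an endothelial gene, had a UMI in 1.65% and 1.17% of contractile cells and in 0.782% and 0.721% of low-Myh11 cells. Free RNA, doublets and expression were not told apart in these UMIs, and the endothelial rule had already removed cells with more of them. Nupr1 made up 287 and 218 CPM of the RNA in barcodes without a cell. If all UMIs of Pecam1, Cdh5 and Cldn5 in low-Myh11 cells were free RNA, it would make up 3.31% and 4.22% of UMIs there. Free RNA would then give 9.50 and 9.21 CPM of Nupr1. These 3 genes are part of the endothelial rule, so the values are a rough guide.

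No difference like that of Nupr1 was detected in the other 9 members between these classes. None of the 9 passed an edgeR quasi-likelihood test of contractile over low-Myh11 cells at an adjusted p below 0.05, where 3.59% of all 12533 genes passed (450 genes). Without a block for the library, described below, none passed at an unadjusted p below 0.05 either, against 16.6% of all genes. With such a block 3 of the 9 did, beside 4474 of all 12533 genes, so nothing is read from that count. DESeq2 called none of the 9 and 989 genes in all. Their median log2 fold change was 0.13, beside -0.04 over all genes tested, and 6 of 9 lay above 0.

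Among the regulators, Atf4 was at 185 and 99.7 CPM in contractile cells and 195 and 112 CPM in low-Myh11 cells of replicates 1 and 2 (log2 fold change -0.06, SE 0.54, adjusted p = 0.977 by edgeR). Atf5 was at 122 and 128 CPM against 127 and 111 CPM (0.13, SE 0.16, adjusted p = 0.752 by edgeR). Over both libraries together the groups overlapped for both factors. For Atf4 the SE of this fit includes the difference between the libraries. Within each library Atf4 was lower in contractile cells, by a log2 ratio of -0.08 and -0.17. With the library as a block its log2 fold change was -0.06 (SE 0.07, adjusted p = 0.585 by edgeR). Ddit3 had 38.3 and 15.9 CPM in contractile cells and 40.6 and 31.4 CPM in low-Myh11 cells, and the libraries differed more than the classes. Trib3 was low throughout, at 2.45 and 3.30 CPM against 2.00 and 2.51 CPM, from 19 and 35 UMIs in contractile cells.

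Among the metabolic targets, Asns was at 52.4 and 51.5 CPM in contractile cells and 47.6 and 42.6 CPM in low-Myh11 cells. The 2 groups did not overlap, but the log2 fold change of 0.27 (SE 0.19) did not pass (adjusted p = 0.556 by edgeR). Chac1 was at 7.48 and 3.67 CPM against 4.09 and 3.11 CPM, with the smallest p of the 9 members (log2 fold change 0.68, SE 0.37, adjusted p = 0.417 by edgeR). Psat1 was at 41.8 and 62.7 CPM against 44.2 and 44.4 CPM, so that its contractile values lay on either side of the low-Myh11 values.

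Of the mTORC1 inhibitors, Ddit4 was at 4.39 and 3.49 CPM against 4.28 and 3.84 CPM, with overlapping groups. Sesn2 was at 12 and 6.41 CPM in contractile cells and 14.1 and 12.1 CPM in low-Myh11 cells, again with the libraries apart. The library as a replicate block removes what both classes of a library share. With it, Sesn2 was the only member called and was lower in contractile cells (log2 fold change -0.51, SE 0.16, adjusted p = 0.0414 by edgeR). That fit called 23% of all genes. At an unadjusted p below 0.05 it also held Chac1, higher (0.65, SE 0.26, adjusted p = 0.0968 by edgeR), and Ddit3, lower (-0.45, SE 0.20, adjusted p = 0.129 by edgeR). Of all 12533 genes 4474 were at that p.

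For 3 members the libraries differed in the same direction in all 7 classes, the 2 intermediate ones included. Over 7819 genes the library deviations correlated between classes, with r from 0.405 to 0.935. The share of all genes shifted the same way in all 7 classes was not counted, so nothing is read from the count of members. Atf4 had its higher value in replicate 1 in 7 of 7 classes, by 0.80 to 1.02 on the log2 scale. Ddit3 was higher in 7 of 7 by 0.37 to 1.27, and Sesn2 by 0.22 to 0.90. Nupr1 had no such shift, with a log2 ratio of the libraries from -0.94 in one class to 0.45 in another. Depth, mitochondrial share and the Cell Ranger version in the file header (3.0.2 and 3.1.0) also differed between the libraries, and with 1 culture per library these cannot be told apart from the culture.

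Over the 14 sums of 7 classes in 2 libraries, the genes whose log2(CPM + 1) was most correlated with Nupr1 were Dmd (Pearson r = 0.973), Ttll7 (0.972), Mfge8 (0.971), Fads3 (0.967), Ptprz1 (0.965), Myh11 (0.965), Ppp1r14a (0.962), Hspg2 (0.958), Larp1b (0.958) and Sh3bgr (0.956), among 5830 genes at a mean of 20 CPM or more. Dmd encodes dystrophin and Ppp1r14a the inhibitor of myosin phosphatase, and Mfge8 is a secreted glycoprotein of the arterial media. Of the 9 stress response genes 5 reached 20 CPM. The highest of these was Asns, with r = 0.332 and rank 906, followed by Psat1 (0.237, rank 1215) and Atf5 (0.168, rank 1442), while Atf4 (-0.214) and Ddit3 (-0.335) were negative. Below 20 CPM, r was 0.133 for Chac1, 0.021 for Trib3, -0.092 for Ddit4 and -0.416 for Sesn2. Over the 12 sums without endothelial cells the order changed, with 0.505 for Chac1 and 0.412 for Trib3 above the 0.332 of Asns. The sums share libraries and a few classes set the pattern, so these values are a description. The classes were cut on Myh11, and Nupr1 was chosen for its level in cells with more Myh11. A high r of Nupr1 with Myh11 and other contractile genes was thus built in, and nothing is read from the ranks of the members beside it.

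Within a class the cells were then ranked by Nupr1 among cells of like depth, and the upper tercile of cells was set against the lower one. In contractile cells this separated Nupr1 at 2040 against 86.0 CPM in replicate 1 and 1630 against 154 CPM in replicate 2. None of the 9 other members passed the edgeR test at an adjusted p below 0.05, in a comparison that called 0 of all 12563 genes (0%), with 1759 genes (14%) at an unadjusted p below 0.05 and 364 called by DESeq2. With the library as a replicate block 253 genes were called (2.01%), no member among them. Asns was at 38.5 against 58.3 CPM in replicate 1 and 58.2 against 59.7 CPM in replicate 2, and Atf4 at 168 against 171 CPM and 110 against 99.7 CPM. The log2 ratio of Atf4 between these terciles, with 1 CPM added, was -0.03 in replicate 1 and 0.14 in replicate 2. Over single cells, Pearson r of Atf4 with Nupr1, both as log2(CPM + 1), was 0.11 and 0.09 in contractile cells. In low-Myh11 cells it was 0.14 and 0.08. Over all 9 members r ran from 0.03 to 0.17 and from 0.01 to 0.14 in low-Myh11 cells of replicates 1 and 2. In contractile cells it ran from -0.04 to 0.25 and from -0.06 to 0.09. The highest there was Psat1, at 0.25 in replicate 1 and 0.08 in replicate 2. Trib3 was the one member at an unadjusted p below 0.05 (log2 fold change 1.59, SE 0.63, adjusted p = 0.333 by edgeR), on 11 against 1 UMIs in replicate 1 and 17 against 9 in replicate 2. Over the alternatives tried, which include leaving out either library, Trib3 ran from 0.96 to 3.50 and Psat1 from 0.07 to 0.51. Chac1 ran from -0.20 to 2.18 and Asns from -0.57 to 0.02.

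The contractile terciles differed in the state of the cells. Some genes of modulated, fibroblast-like smooth muscle cells were lower in the upper tercile. Dcn, which encodes decorin, was at 31.0 against 364 CPM in replicate 1 and 34.1 against 189 CPM in replicate 2. Pdgfra was at 11 against 81.8 CPM and 7.10 against 36.9 CPM. The sum of 7 modulated markers differed less, at 2490 against 3350 CPM and 2460 against 2970 CPM. Summed contractile markers were higher, at 31400 against 19500 CPM and 30700 against 23000 CPM. Of 7 modulated markers, 0 were called, and 4 were lower and 1 higher at an unadjusted p below 0.05. The higher one was Spp1 (log2 fold change 1.63, SE 0.67, adjusted p = 0.345 by edgeR). Their part in the member values was not tested.

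The same split was made in low-Myh11 cells. Their median was 1 Nupr1 UMI a cell in each library, against 7 and 12 in contractile cells, and ties were ranked in random order. Nupr1 was at 286 against 13.6 CPM in replicate 1 and 243 against 1.06 CPM in replicate 2. The lower tercile of replicate 2 thus held mostly cells without a Nupr1 UMI, so the splits of the 2 classes are not alike. All 9 other members were higher in the upper tercile in both libraries, as were 32.5% of all genes tested. Chac1 was at 8.0 against 1.47 CPM in replicate 1 and 5.66 against 1.54 CPM in replicate 2 (log2 fold change 2.17, SE 0.47). Trib3 was at 3.76 against 1.05 CPM and 4.89 against 1.01 CPM (2.05, SE 0.49). Asns was at 62.8 against 35.2 CPM and 58.8 against 31.2 CPM (0.86, SE 0.19), and Atf5 at 160 against 102 CPM and 145 against 86.5 CPM (0.68, SE 0.17). These are the 4 members at an unadjusted p below 0.05. Atf4 was at 223 against 169 CPM and 129 against 102 CPM, Ddit3 at 48.5 against 35.2 CPM and 40.3 against 25.2 CPM, and Psat1 at 56.1 against 36.0 CPM and 52.2 against 40.4 CPM. Sesn2 was at 18.0 against 11.4 CPM and 13 against 11.9 CPM, and Ddit4 had the smallest ratios, at 4.60 against 4.30 CPM and 4.21 against 3.79 CPM. The terciles did not overlap for 7 of the 9, which leaves out Atf4 and Ddit4, against 11.4% of all genes.

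After adjustment over all 12563 genes no member passed in low-Myh11 cells, and edgeR called 0 genes (0%), so the difference did not meet the threshold of the planned test. The spread in that fit includes the difference between the libraries, which these 2 terciles share (r = 0.899 between their deviations). The lack of calls is therefore not read as a lack of difference. DESeq2 called 1 gene, which was Nupr1 itself. At an unadjusted p below 0.05 there were 4 of the 9 members, Chac1, Asns, Trib3 and Atf5, and 53 genes in all (0.422%). By p they ranked 3, 4, 5 and 7 of all genes. Over the alternatives tried, which include leaving out either library, Chac1 ran from 1.82 to 2.42 and Trib3 from 1.71 to 2.24. Asns ran from 0.64 to 0.89 and Atf5 from 0.47 to 0.72, and none of these 4 passed after adjustment in any alternative. With the library as a replicate block the unadjusted count was 8 of 9 members against 332 genes (2.64%), still with none at an adjusted p below 0.05. In a fit added after these values were seen, terciles of the cycling classes were included so that 16 sums shared the spread. With the library block 7 of 9 members were at an unadjusted p below 0.05, against 3.12% of all genes. It called 2 genes (0.0162%), Phgdh of serine synthesis and the tRNA synthetase Cars, and left Trib3 and Chac1 at an adjusted p of 0.0918 each by edgeR.

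**Figure D3:**
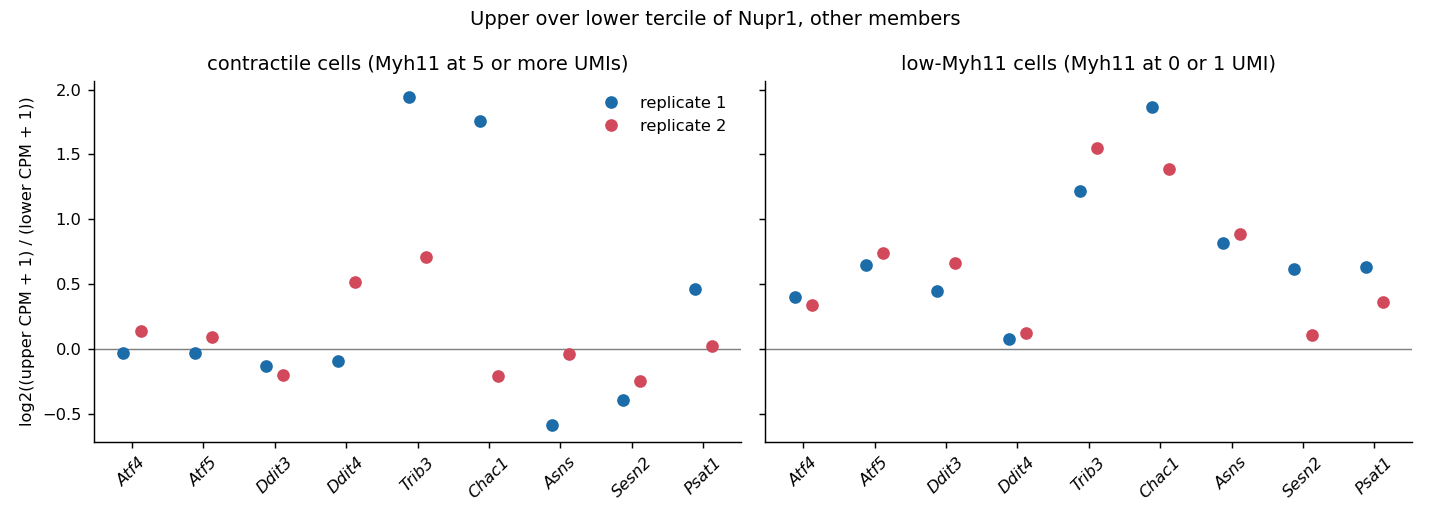
log2 ratio, with 1 CPM added to both values, of the upper over the lower tercile of Nupr1 for the 9 other genes, in contractile and in low-Myh11 cells, with 1 point per library. In low-Myh11 cells all 18 points lie above 0, and in contractile cells Ddit3, Asns and Sesn2 lie below 0 in both libraries.

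Median UMIs were alike in the terciles by construction, at 20095.5 against 20098.5 in replicate 1 and 14728 against 14715 in replicate 2 of the low-Myh11 cells. The median mitochondrial share was 3.66% against 3.85% and 5.02% against 5.15%. Summed contractile markers were also higher in the upper tercile of low-Myh11 cells, at 7290 against 5460 CPM and 4210 against 2820 CPM. Immediate early and heat shock genes were at 3170 against 3340 CPM and 2180 against 2400 CPM. The part of these values in the result was not tested.

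The genes of the pathway beyond the members were read in the same way. Of 20 tested genes of amino acid synthesis and uptake that ATF4 induces, 18 had a log2 fold change above 0 between the terciles of low-Myh11 cells, with a median of 0.61 beside 0.00 over all genes, and 7 reached an unadjusted p below 0.05, all higher. Slc7a5, a transporter of large neutral amino acids, was at 16.4 against 6.82 CPM in replicate 1 and 15.1 against 5.57 CPM in replicate 2, and Mthfd2 of mitochondrial folate metabolism at 52.8 against 23.2 CPM and 34.5 against 14.1 CPM. Phgdh, the entry enzyme of serine synthesis, was at 103 against 55.5 CPM and 134 against 83.8 CPM. These 3 genes, and Ndrg1 below, were chosen after their values were seen. Of 13 tRNA synthetases all 13 lay above 0, with a median of 0.33, and 2 reached an unadjusted p below 0.05. Of 18 genes of the unfolded protein response of the endoplasmic reticulum 15 lay above 0, with a median of 0.04 and 0 at that p, and 9 hypoxia genes had a median of 0.03 with 0 at that p. The 16 regulators of the response had a median of 0.09 with 0 at that p. Of 12 other ATF4 targets 10 lay above 0, with a median of 0.24, and 2 were higher and 1 lower at that p. The lower one was Ndrg1 (log2 fold change -0.62, SE 0.16, adjusted p = 1.0 by edgeR), which ranked 8 of all genes by p. The lists were not tested against each other. No list had a gene at an adjusted p below 0.05 in the planned fit.

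In contractile cells the amino acid genes had a median of -0.05 between the terciles, with 9 of 20 above 0 and 1 higher at an unadjusted p below 0.05, which was Slc7a5. Slc7a5 was at 20.8 against 12.7 CPM in replicate 1 and 32.1 against 20.3 CPM in replicate 2, and Mthfd2 at 57.8 against 35.7 CPM and 50.6 against 36.0 CPM, so both were higher in the upper tercile as in low-Myh11 cells. Phgdh was at 64.4 against 81.4 CPM in replicate 1 and 101 against 124 CPM in replicate 2, lower in the upper tercile of both libraries, the other way round from low-Myh11 cells (interaction -1.02, SE 0.42, adjusted p = 0.936 by edgeR).

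The difference between both splits was tested as an interaction. Asns had the smallest p of the members, with a difference of -1.09 (SE 0.28) in log2 fold change, contractile minus low-Myh11 cells, at an unadjusted p of 0.00593 and an adjusted p of 0.836 by edgeR. Atf5 followed (-0.60, SE 0.24, adjusted p = 0.930 by edgeR). No member and 0 of 12563 genes (0%) passed after adjustment, against 667 genes (5.31%) at an unadjusted p below 0.05 and 35 called by DESeq2. Over the alternatives tried, the Asns difference ran from -1.43 to -0.64, with adjusted p by edgeR or DESeq2 from 0.110 to 1.00. The members' association with Nupr1 is thus not shown to differ between the 2 classes.

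The members were also used in turn to split the cells, for the 6 that have enough UMIs. In low-Myh11 cells each of Atf4, Atf5, Ddit3, Asns and Psat1 gave an upper tercile with at least 8 of the 9 others higher in both libraries, and the mean log2 ratio of Nupr1, with 1 CPM added, was between 0.32 and 0.71. In contractile cells Nupr1 was between -0.37 and 0.35 under the same 5 splits. There Asns, for example, was 1.88 higher on that scale in the upper tercile of cells split by Atf5 and Chac1 was 1.94 higher in that of cells split by Atf4. As splitters Atf4, Atf5, Asns and Psat1 each had 6 of 9 other members higher in both libraries. Asns also had 1 lower in both, which was Nupr1, at -0.63 and -0.11 in replicates 1 and 2. Ddit3 as the splitter had 4 of 9 higher and 1 lower, with a median of 0.03 over the 9, and Nupr1 had 2 of 9 higher and 3 of 9 lower, with a median of 0.06. Contractile cells were far fewer than low-Myh11 cells, with 100 and 170 against 850 and 1247 cells in a tercile, and no test was made of these splits. Apart from 32.5% for the Nupr1 split of low-Myh11 cells, the share of all genes higher in both libraries was not counted. Nothing is therefore read from the counts of members.

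**Figure D4:**
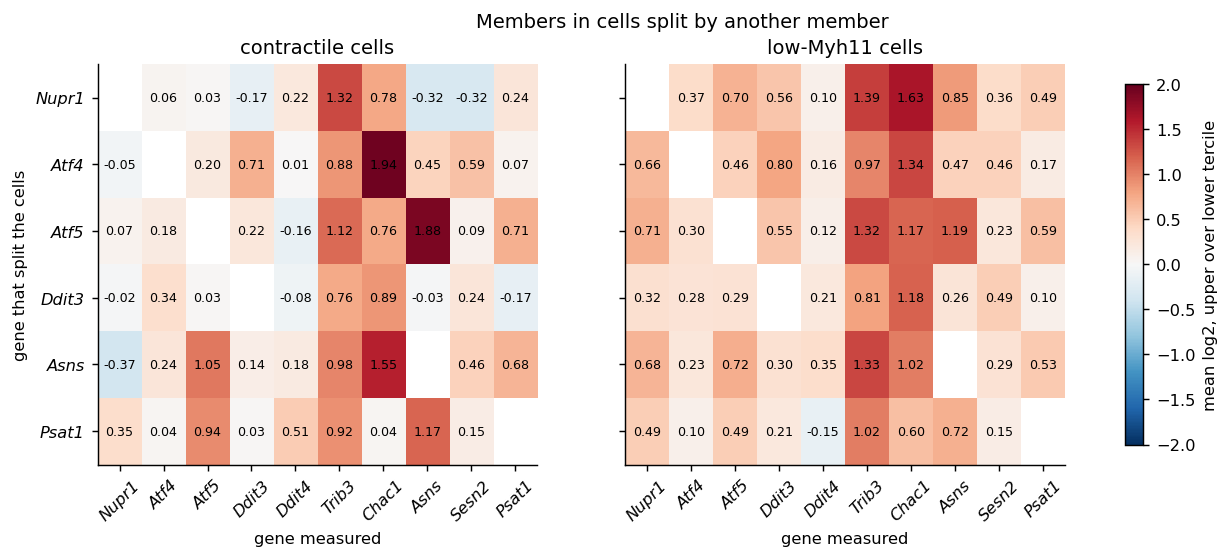
Mean over both libraries of the log2 ratio, with 1 CPM added, of each gene (columns) between the upper and lower tercile of cells ranked by another gene (rows), in contractile and low-Myh11 cells. In low-Myh11 cells every ratio but 1 is above 0, while in contractile cells Nupr1 stays within -0.37 and 0.35.

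No difference of Nupr1 with cycling was detected. In low-Myh11 cells it was at 113 and 101 CPM in cycling cells against 127 and 93.0 CPM (log2 fold change -0.10, SE 0.32, adjusted p = 0.955 by edgeR), and in contractile cells at 872 and 706 CPM against 823 and 801 CPM (-0.11, SE 0.32, adjusted p = 0.959 by edgeR). None of the 10 passed in either comparison, where 6.12% and 6.23% of all genes did. In the main fit there was also none of the 10 at an unadjusted p below 0.05, against 14.8% and 15.2% of all genes. DESeq2 called none of the 10, beside 1240 genes in low-Myh11 cells and 1099 in contractile cells. By p, Atf5 was the nearest in contractile cells, at 105 and 105 CPM in cycling against 122 and 128 CPM in non-cycling cells. Its log2 fold change there was -0.32 (SE 0.16, adjusted p = 0.391 by edgeR). Psat1 was the nearest in low-Myh11 cells, at 74.1 and 81.6 CPM in cycling against 44.2 and 44.4 CPM in non-cycling cells. In contractile cells Psat1 was at 71.0 and 91.1 CPM against 41.8 and 62.7 CPM. The cycling values of Psat1 lay above the non-cycling ones in both comparisons. Its log2 fold change in low-Myh11 cells was 0.75 (SE 0.34, adjusted p = 0.344 by edgeR). With the library as a replicate block it was 0.74 (SE 0.23, adjusted p = 0.0466 by edgeR), in a fit that called 19.4% of all genes. With the block, Psat1 was the member at an unadjusted p below 0.05 in low-Myh11 cells, beside 4148 genes in all. In contractile cells Atf5 and Psat1 were, beside 3494 genes in all. Mthfd2 was the one amino acid gene called higher in cycling low-Myh11 cells (1.09, SE 0.28, adjusted p = 0.0499 by edgeR).

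Endothelial cells were set against the mean of contractile, low-Myh11 and low-Myh11 cycling cells for the 9 members other than Nupr1. Of these, 4 passed, 3 higher and 1 lower, where 28.1% of all genes passed, 17.9% higher and 10.2% lower, so that nothing is read from the count itself. Endothelial cells were not split by cycling, and 10 of 10 G2/M genes and 6 of 10 S phase genes were called higher in the same comparison. Their part in the member values was not tested. Trib3 was at 14.3 and 12 CPM in endothelial cells, above all smooth muscle classes, which ran from 1.76 to 5.82 CPM (log2 fold change 2.36, SE 0.36, adjusted p = 0.00107 by edgeR). Ddit4 was at 11.7 and 18.8 CPM against 2.08 to 4.97 CPM (1.92, SE 0.31, adjusted p = 0.00139 by edgeR). Chac1 was at 13.8 and 8.0 CPM against 3.11 to 7.48 CPM (1.28, SE 0.33, adjusted p = 0.0176 by edgeR). None of these 3 kept an adjusted p below 0.05 when either library was left out. By edgeR the adjusted p without replicate 1 and without replicate 2 was 0.135 and 0.0811 for Trib3, 0.0705 and 0.212 for Ddit4 and 0.215 and 0.127 for Chac1. Chac1 also lost the call among cells with at least 10000 UMIs (adjusted p = 0.0899 by edgeR). They rested on 28 and 21 UMIs for Trib3, 23 and 33 for Ddit4 and 27 and 14 for Chac1.

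Atf5 was lower in endothelial cells, at 76.4 and 51.4 CPM against 100 to 141 CPM in smooth muscle (log2 fold change -0.98, SE 0.14, adjusted p = 0.000782 by edgeR), and stayed below an adjusted p of 0.05 without either library. Atf4 was called with the library as a replicate block only, at a log2 fold change of 0.20 (SE 0.07, adjusted p = 0.0336 by edgeR), in a fit that called 42.3% of all genes. The hypoxia list had 5 of 10 genes higher and 1 lower in endothelial cells, and the unfolded protein list 2 of 18 higher and 12 lower. Endothelial cells were shallower than the smooth muscle classes, and the part of depth was not tested beyond the cut at 10000 UMIs.

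In the wider pathway no gene was called between contractile and low-Myh11 cells either. Of 16 tested regulators of the response (eIF2 kinases, phosphatase subunits and partner factors), 20 amino acid genes, 13 tRNA synthetases, 12 other ATF4 targets, 18 unfolded protein genes, 7 mitochondrial stress genes, 10 hypoxia genes, 6 glucocorticoid-induced genes, 9 p53 targets and 12 immediate early and heat shock genes, 0 passed at an adjusted p below 0.05 by edgeR, against 3.59% of all genes. At an unadjusted p below 0.05, where 16.6% of all genes lay, they held 1 higher and 4 lower regulators, 2 higher and 1 lower amino acid genes, 2 higher and 2 lower other ATF4 targets, 2 higher unfolded protein genes, 3 higher and 1 lower hypoxia genes, 1 higher glucocorticoid-induced gene and 2 lower p53 targets. Their median log2 fold changes ran from -0.43 for immediate early and heat shock genes to 0.45 for hypoxia genes. Of 8 endothelial markers 4 lay above 0 in contractile over low-Myh11 cells, with a median of 0.12, and 6 were not called. The 2 called were Esam and Gja4, higher in contractile cells (4.36, SE 0.84, and 3.14, SE 0.40). Pecam1, which defines endothelial cells, stayed at 0.645 and 0.565 CPM there.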

How the data were processed

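Single-cell 3' libraries of primary aortic VSMCs were made and sequenced by the authors, who aligned the reads with Cell Ranger (3.0.2 and build mm10 per the submitters' notes, with 3.1.0 in the header of replicate 2) and deposited UMI counts per gene for all barcodes. Other upstream settings are not given in the sources used here. The quality limits on genes, UMIs and mitochondrial share are those of the study. Doublets were not called and were kept in the main result, and 4 and 3 cells of replicates 1 and 2 that met the endothelial rule with 5 or more Myh11 UMIs counted as endothelial.

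UMIs were summed per library and class (14 sums) or per library, class and Nupr1 tercile (8 sums), the terciles taken within deciles of UMIs per cell. CPM are these sums scaled to 1000000 UMIs. Sums were tested with edgeR 4.0.16 in R 4.3.3 by the quasi-likelihood test (TMM, filterByExpr, Benjamini-Hochberg adjustment, threshold 0.05), with DESeq2 1.42.0, other scalings, filters, cell limits and class cuts as alternatives. The scripts were run on simulated data in which all sums were drawn independently. That simulation had no library effect, so it does not check the test on sums that share a culture. All 10 members passed the filter on low counts. Levels of different genes are per UMI of 3' tags, not per length. Cells are not replicates. The p-values rest on the spread between the 2 libraries within each class, pooled over all sums of a fit and shared across genes. The main fit treats the sums as independent, although those of a library come from the same culture. An exact permutation test of 2 values against 2 cannot go below 0.33 and was not used. The libraries differed beyond sampling noise (median chi-square per gene 13.4).

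The replicate number pairs the sums, because all sums of a number come from the same culture, and deviations from the class means correlated between classes with r from 0.405 to 0.935 and between terciles with r from 0.306 to 0.899. The main result has no block, as planned. The members, gene lists and comparisons were chosen with earlier results of these data known. By rule, at most 3 called genes of a list and the 10 genes most like Nupr1 were named, with exceptions stated.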

Additional observations from a re-analysis of the deposited data

Results flagged for a closer look

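Asns had a ratio of the other sign in each class when cells were split by Nupr1, though in contractile cells of replicate 2 the terciles were nearly equal (205 against 209 UMIs). Its log2 ratio of the upper over the lower tercile, with 1 CPM added, was -0.59 and -0.04 in contractile cells and 0.82 and 0.89 in low-Myh11 cells of replicates 1 and 2. The interaction had an unadjusted p of 0.00593 and an adjusted p of 0.836 by edgeR. Ddit3 and Sesn2 had the same signs, with -0.13 and -0.20 against 0.45 and 0.66 for Ddit3 and -0.39 and -0.25 against 0.62 and 0.11 for Sesn2. Neither interaction passed the same test. Their contractile values rest on 87 against 98 and 54 against 62 UMIs for Ddit3. For Sesn2 these were 21 against 29 and 24 against 29 UMIs. The share of all genes with such opposite signs was not counted. Trib3 differed in sign in the ratio of cycling over non-cycling cells, at 0.02 and 0.27 in contractile and -0.02 and -0.05 in low-Myh11 cells. That difference was not tested, and it rests on levels under 4 CPM.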

How the results depend on the processing

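With 2 libraries, counts of called genes depended strongly on the processing. The library as a replicate block raised them to 2878 for contractile over low-Myh11 cells, 2437 and 1848 for cycling in low-Myh11 and contractile cells, 5304 for endothelial cells, 253 for the contractile terciles and 2 for the difference of the terciles. DESeq2 gave 989, 1240, 364, 1 and 35 genes for contractile cells, low-Myh11 cycling, the contractile terciles, the low-Myh11 terciles and their difference. Without a filter on low counts the contractile terciles had 312 calls and the difference 4. Terciles of 4 classes, chosen after seeing the data, gave 5 for the contractile terciles, and with the replicate block 872, 2 and 11 for contractile cells, low-Myh11 cells and the difference. Leaving out 1 library left 0 calls for contractile cells (744 to 1333 genes at an unadjusted p below 0.05), 342 to 357 and 357 to 371 for cycling and 667 to 742 for endothelial cells, with the lone sample of a class assumed to vary like the others.

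Beside the calls given in the report (Sesn2, Psat1 and Atf4), the block changed no call of a member. Signs were followed for Nupr1 and Psat1 only in the cycling comparisons, and for some members only in endothelial cells and the difference of the terciles. Among the values followed, the sign of a member turned in these cases, none of them called. Ddit4 was -0.02 (log2) in contractile over low-Myh11 cells with cycling set at 500 CPM, and -0.04 between low-Myh11 cells split in equal parts at the middle. Nupr1 was 0.04 in cycling contractile cells and Ddit3 0.06 between the contractile terciles with Myh11 cuts in CPM, and Atf5 was -0.0023 there with mitochondrial UMIs under 10%. Without 1 library, contractile over low-Myh11 cells ran from -0.07 to 0.01 for Atf4, -0.88 to 0.0029 for Ddit3 and -0.04 to 0.12 for Ddit4. Cycling ran from -0.2 to 0.04 for Nupr1 in low-Myh11 and -0.3 to 0.0017 in contractile cells. The contractile terciles ran from -0.00029 to 0.14 for Atf5, -0.09 to 0.72 for Ddit4, -0.2 to 2.18 for Chac1 and -0.57 to 0.02 for Asns. For the difference of the terciles, a library was left out of the contractile terciles only, and the low-Myh11 terciles kept both. That difference ran from -2.38 to 0.0014 for Chac1 and from -1.09 to 1.44 for Trib3. The causes were not tested. Ddit4, Trib3 and Chac1 rest on 14 to 33 UMIs a library in endothelial cells.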
